A study of Mus musculus with 384 samples.

Results

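The cytosolic ribosomal protein genes were taken by name from a table of single hair follicle stem cells of mouse back skin. A gene was a member where its symbol was Rpl or Rps followed by a digit, or was Rplp0, Rplp1, Rplp2 or Rpsa, with symbols holding -ps (processed pseudogenes) and the Rps6k kinases left out. The rule found 92 of the 46517 gene rows, spike-in rows left out. They are 43 genes of large subunit proteins, 31 of small subunit proteins, 3 of the stalk, 14 paralogs or retrocopies, and Rps19bp1, whose product binds RPS19 and is not itself a ribosomal protein. The 77 subunit and stalk genes, called core genes here, make up most of the mouse cytosolic ribosome. The naming rule does not reach ribosomal proteins with other symbols, such as Fau and Gnb2l1 (the older symbol of Rack1).

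Each ribosome carries a small subunit, which reads the messenger RNA, and a large subunit, which joins amino acids, and the lateral stalk of RPLP0, RPLP1 and RPLP2 recruits the elongation factors. The messenger RNAs of ribosomal proteins begin with a run of pyrimidines, the 5′ TOP tract (terminal oligopyrimidine), through which mTOR signalling sets their translation, and they share that tract with elongation factors and a few other translation genes. In the hair follicle, quiescent bulge stem cells are known for low protein synthesis that rises on activation, and mutations of ribosomal protein genes such as Rps19 and Rps20 darken mouse skin through a p53 response in keratinocytes.

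Cells came from back skin of mice of postnatal day 70, in which Sox9-CreER, a tamoxifen-inducible recombinase active in hair follicle stem cells, acts on loxP-flanked alleles of the transcription factors NFIB and NFIX. Both groups carried Sox9-CreER, NFIXfl/fl and the R26-YFPfl/fl reporter. The cKO had the genotype NFIBfl/+ and so a wild-type Nfib allele, and the dKO, described as littermates, was NFIBfl/fl. Living cells positive for YFP and integrin α6 were sorted singly by FACS into 96-well plates, either negative or positive for the surface protein Sca-1, and sequenced by Smart-seq2, which reads whole transcripts. Of 384 cells 378 had at least 1000 genes detected at 1 TPM (transcripts per 1000000) and were kept: 71, 47 and 65 Sca-1-negative cells on cKO plates 1, 2 and 3, 93 and 61 on dKO plates 1 and 2, 22 Sca-1-positive cells on cKO plate 3 and 19 on dKO plate 2. Among the 337 Sca-1-negative cells, 91 had at least 10 TPM of Cd34, a surface marker of the bulge, and 37 at least 10 TPM of Top2a, a marker of cycling cells. No label says which animal a cell came from, and all cells of a genotype in a gate therefore count as 1 sample. No test was run, and values are given by plate, with the SD over cells where a plate is described.

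The plates did not match their labels in every respect. All cells are labelled male, but the 3 plates cKO plate 1, cKO plate 2 and dKO plate 1 held 44.5 to 59.8 TPM of Xist, the RNA of the silenced X chromosome, and no more than 0.978 TPM of 4 Y-linked genes together. Sca-1-negative cells of cKO plate 3 and dKO plate 2 held at most 0.102 TPM of Xist and 34.1 to 41.7 TPM of those Y-linked genes. Nfib lay between 67.1 and 80.4 TPM on cKO plates, against 58.4 TPM (dKO plate 1) and 90.4 TPM (dKO plate 2), so its level did not separate the genotypes. Nfix, with the same alleles in both, lay between 43.7 and 47.96 TPM on cKO plates and at 29.6 and 32.3 TPM on dKO plates. Read depth is unknown, since TPM does not keep it, and means of genes detected by plate and gate ran from 4873 to 5270. A single ribosomal RNA row, Rn18s-rs5, took 55.3% to 61.5% of all TPM by plate and gate, which lowers every other gene where it is high. Bulge, upper follicle and basal keratinocyte markers were detected, and 0 of 378 cells had 3 or more markers of immune cells, melanocytes, fibroblasts or endothelium at 10 TPM. Of 3 endothelial markers 2 were listed at 0, so no cell could reach 3 of them. In each of the other lists 1 marker was listed at 0, of 5 immune, 4 melanocyte and 4 fibroblast markers. The count of 0 therefore does not show that such cells were absent.

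The annotated start sites of the genes are shown first, because the pyrimidine tract is what the messenger RNAs of the family are known to share and the naming rule does not use it. RefSeq promoters of build GRCm38.p6 were given for 67 of the 92 members, with 79 starts. In a window of 10 bases before and 20 bases from the start, a tract was called where a C was followed by at least 6 further bases that were all C or T. A tract lay in 30 of 79 member starts (38.0%) against 13.5% of 32851 starts of all genes, and in 3 of 11 starts of paralogs and retrocopies. It lay in 5 of 13 starts of TOP translation factors (38.5%) and 7 of 74 starts of mitochondrial ribosomal protein genes (9.46%). On the opposite strand (at least 6 A or G and then G) the shares were 5.06% of member starts, 38.5% of TOP factor starts (5 of 13), 10.8% of mitochondrial ribosomal protein starts and 15.6% of all starts. The TOP factors had the same share on both strands. Capitals mark the longest tract. The examples are core genes with a long tract (Rpl13a, chr7:45128726-45128755, minus strand, Rpl27a, chr7:109519185-109519214, plus strand, Rpl35, chr2:39005112-39005141, minus strand, and Rps6, chr4:86857348-86857377, minus strand), and Rps27 (chr3:90213629-90213658, minus strand) beside its retrocopy Rps27rt (chr9:114982720-114982749, minus strand).
Rpl13a: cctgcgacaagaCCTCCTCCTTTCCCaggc
Rpl27a: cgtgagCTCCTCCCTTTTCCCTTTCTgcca
Rpl35: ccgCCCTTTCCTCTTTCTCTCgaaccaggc
Rps6: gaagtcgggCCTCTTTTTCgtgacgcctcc
Rps27: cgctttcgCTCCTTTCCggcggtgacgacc
Rps27rt: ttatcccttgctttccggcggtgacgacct

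The window of Rps27rt held no tract of that length. The absence of a match says only that these letters are not in the window. Core genes with a tract had a median level of 251 TPM (27 genes) and those with a RefSeq start but without one 224 TPM (30 genes). With near-identical copies added, the medians were 320.2 and 386 TPM, so the order of the levels turned with the way copies were counted.

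The table gave core genes very unequal levels, and most of the lowest values belonged to genes with a near-identical copy elsewhere in the genome. Mean TPM over the 5 plates of Sca-1-negative cells ran from 10.4 (Rpl5) to 679 (Rps14) among the 77 core genes. Near-identical copies, annotated transcripts of at least 95% identity to a member over at least 80% of their own length, numbered 489 rows for 78 members, and 28 of these rows held at least 100 TPM. Rows that are themselves members were not counted as copies, so Rpl37rt, Rps27rt and Rps12l1 were not added to Rpl37, Rps27 and Rps12. For 13 members the copies held more TPM than the gene. With copies added to their gene, core genes ran from 41.8 to 982 TPM, the highest being Rpl41. The SD of log2 level over core genes was 1.12 for the genes alone and 0.65 with copies, and 7 genes were under 100 TPM alone against 1 with copies (Rpl37). That gene gave the lowest value of 41.8 TPM. Its retrocopy Rpl37rt, at 230.2 TPM and with 1 difference over 294 coding bases, is a member and is not in that value.

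**Figure D1:**
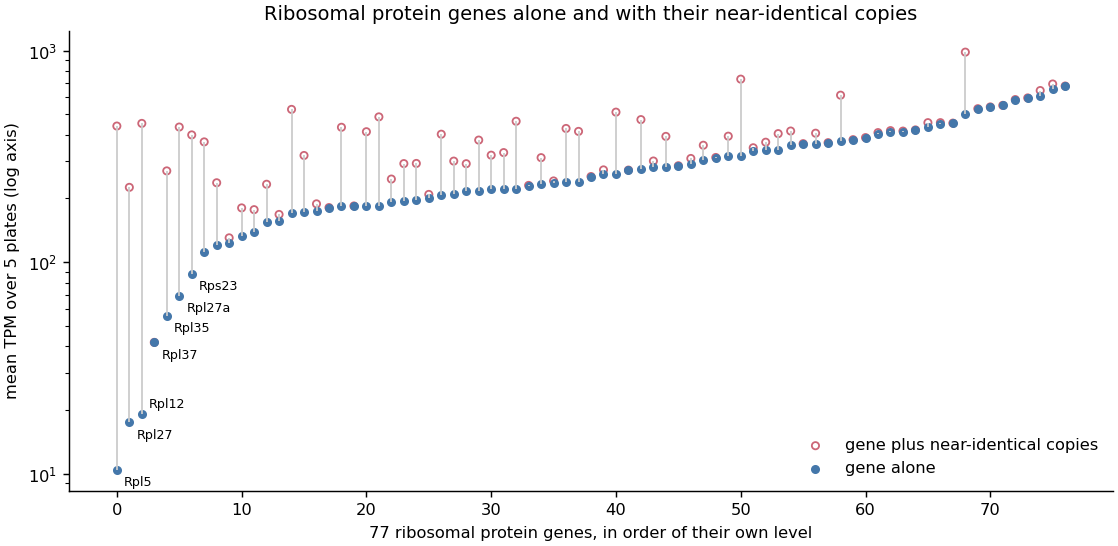
Mean TPM over the 5 plates of Sca-1-negative cells for 77 core ribosomal protein genes, on a log axis, in order of the gene's own level. Filled points are the gene alone, open points the gene plus its near-identical copies, and a line joins them. Rows that are themselves members are not added as copies. The 7 genes under 100 TPM alone are named, and for 6 of them the open point lies above 200 TPM.

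Rpl5, whose product carries 5S RNA into the large subunit together with RPL11 and binds the p53 regulator MDM2, showed the gap most fully. The gene itself averaged 7.44, 20.4 and 9.01 TPM on cKO plates 1, 2 and 3 and 6.98 and 8.40 TPM on dKO plates 1 and 2. Its copy Gm15500, a transcribed processed pseudogene at chr7:114705217-114706235, averaged 359, 482, 435, 407 and 459 TPM on the same plates. The 894 coding bases of Rpl5 and the copy had 0 differences, and a read within them matches both rows equally.

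Other pairs looked alike. Rpl12 averaged 19.2 TPM and Gm10275 (chr10:29698746-29699380) 419 TPM, with 0 differences over 498 coding bases. Rpl27a averaged 69.1 TPM and Gm7536 358 TPM, with 0 differences over 444 bases. Rps23 (88.02 TPM) and Rps23-ps1 (306 TPM) had 0 differences over 425 bases. Levels of these members describe the rows of the table and not the genes.

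Large subunit genes had a median of 222 TPM (range 10.4 to 612) and small subunit genes a median of 305 TPM (range 88.02 to 679). Among the 10 highest members were Rps14 (679 TPM), Rplp1 (659), Rpl13 (612), Rps19 (595), Rpl13a (585), Rps15 (550.4), Rps4x (539), Rps27 (531) and Rpl41 (499). TPM divides by transcript length, so these are levels per transcript and not per base. Rps19 and Rpsa, both small subunit proteins whose human genes are mutated in Diamond-Blackfan anaemia and in congenital asplenia respectively, averaged 595 and 184.7 TPM. Rpl38, whose loss in mice disturbs the axial skeleton, averaged 132.3 TPM, and Rpl21, mutated in a human hereditary hair loss, 317 TPM. Of the stalk genes Rplp1 averaged 659 TPM, Rplp2 362 TPM and Rplp0 261 TPM.

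In all, 84 of the 92 members averaged at least 5 TPM and 72 at least 100 TPM, and 17 were at 10 TPM or more in each of the 337 Sca-1-negative cells. The 8 members under 5 TPM were Rps4l (4.47 TPM), Rps19bp1 (3.17), Rps3a2 (1.10), Rps3a3 (0.15), Rps12l2 (0.07), Rpl3l (0.05), and Rpl10l and Rpl39l, both listed at 0 in every Sca-1-negative cell. Of these Rpl3l is known from heart and skeletal muscle, and Rpl10l and Rpl39l from testis. The 5 lowest members above 1 TPM were Rps3a2, Rps19bp1, Rps4l, Rpl7l1 (5.59 TPM) and Rpl5.

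The paralogs that were detected were of both kinds, retrocopies nearly identical to their source and diverged genes. Rpl37rt averaged 230.2 TPM against 41.8 TPM for Rpl37, and their coding sequences differed at 1 of 294 bases. Rps12l1 averaged 353 TPM against 223 TPM for Rps12, with 5 differences over 399 bases. Rps27rt, identical to Rps27 over all 255 coding bases, averaged 50.1 TPM against 531 TPM. Among diverged paralogs, Rpl36al (66.5 TPM, 87.9% identity in the coding sequence) stood beside Rpl36a on the X chromosome (120.6 TPM). Rpl22l1 (65.7 TPM, 71.9% identity), which is known to rise when Rpl22 is lost, stood beside Rpl22 (184.2 TPM). Rps27l (39.9 TPM, 76.1% identity), a known p53 target, stood beside Rps27, and Rpl7l1 (61.2% identity) at 5.59 TPM beside Rpl7 at 386 TPM.

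Rps12, a small subunit gene, was listed at 0 in some cells and its copy in others, but never both in the same cell. The gene was listed at 0 in 65 of 337 Sca-1-negative cells (19.3%), and its copy Rps12-ps3 in 59 (17.5%), while 0 cells had both at 0 and all 337 had at least 10 TPM of the pair. The coefficient of variation of Rps12 over cells was 0.95, against a median of 0.50 over the 84 members at 5 TPM or more. Rps27rt was listed at 0 in 180 of the 337 cells (53.4%) and Rps27 in 2, and 0 cells had both at 0.

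The 4 members on the X chromosome gave no separation of the plates by Xist. Rps4x averaged 487, 605 and 534 TPM on the plates with Xist (cKO plates 1 and 2 and dKO plate 1) and 535.1 and 535.0 TPM on the plates with Y-linked RNA (cKO plate 3 and dKO plate 2). Rpl10 (247, 307 and 296 against 250.1 and 274 TPM), Rpl36a and Rpl39 overlapped between those plates as well.

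Across the cells of a plate the members were high or low together. The summed TPM of large subunit genes, stalk included, and of small subunit genes had a mean Spearman correlation over the 5 plates of 0.95 (0.94 to 0.96, 47 to 93 cells each). Both sums share a library and its total, so the value is given as a description. A member at 5 TPM or more had a median correlation of 0.57 with the sum of the other members, and the 197 other genes at 100 TPM or more a median of 0.03 with the sum of all members. Of those 197 the nearest in pattern were Gnb2l1 (0.61), a ribosomal protein outside the naming rule, the elongation factor Eef1a1 (0.60) and Tpt1 (0.55), another TOP messenger RNA. Members at 100 TPM or more varied less between cells than those other genes, with a median coefficient of variation of 0.48 against 0.73.

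The coupling differed by role. Small subunit genes had a median correlation with the rest of 0.61, stalk genes 0.61, large subunit genes 0.54 and the 7 measured paralogs and retrocopies 0.18. Rpl5, Rpl12 and Rpl27, whose copies held more TPM than the genes, had 0.10, 0.17 and 0.07. Among paralogs the retrocopies Rps12l1 and Rpl37rt had 0.52 and 0.49, near the subunit genes, while Rpl22l1 (0.21), Rpl36al (0.18) and Rps27l (0.10) were lower. Members of high TPM were mostly the more strongly correlated, and the part of level in these differences was not tested. The summed TPM had a mean correlation of 0.73 with the sum of 18 TOP translation factors, 0.24 with 77 mitochondrial ribosomal protein genes, 0.20 with 51 ribosome assembly genes and 0.09 with the number of genes detected.

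**Figure D2:**
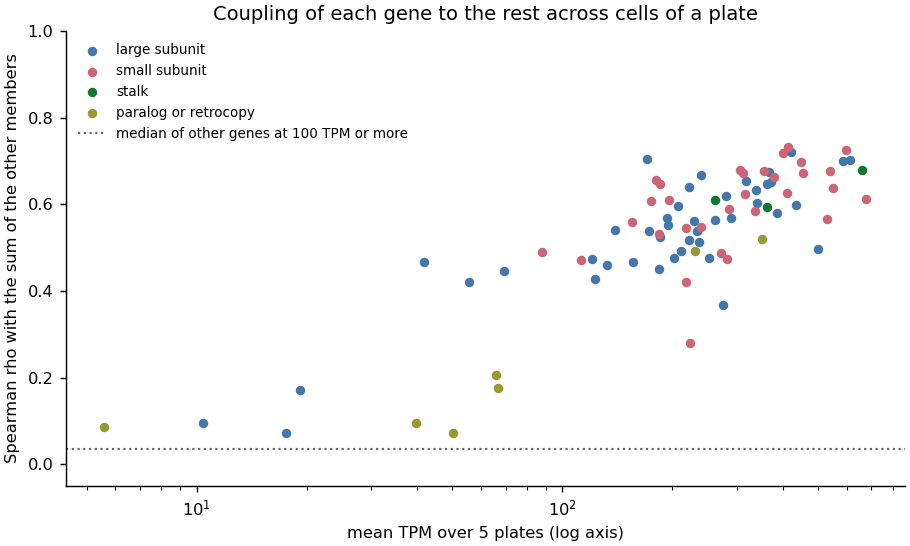
Each point is a member at 5 TPM or more: mean TPM over the 5 plates (x, log axis) and mean over plates of its Spearman correlation with the summed TPM of the other members across cells (y), coloured by role. The dotted line at 0.03 is the median of 197 other genes at 100 TPM or more; most subunit genes lie above 0.4, and 5 of 7 paralogs or retrocopies, with Rpl5, Rpl12 and Rpl27, lie between the line and 0.21.

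Between the genotypes the summed level of the members did not separate the plates. The 92 members together averaged 20360 ± 7286 TPM (SD over 71 cells) on cKO plate 1, 26844 ± 7597 TPM (47 cells) on cKO plate 2 and 21455 ± 6024 TPM (65 cells) on cKO plate 3, against 22085 ± 7802 TPM (93 cells) on dKO plate 1 and 21863 ± 5937 TPM (61 cells) on dKO plate 2. Both dKO plates lay inside the range of the cKO plates, and cKO plate 2 stood 1.32-fold above cKO plate 1. The log2 ratio of dKO to cKO was -0.06. A reduced total left out ERCC spike-ins, mitochondrial genes and the 5 rows of highest TPM. Members made up 8.93%, 11.003% and 9.95% of it for cKO and 10.96% and 10.2% for dKO, a ratio of 1.06, so the sign depended on the scale. The ratio of large to small subunit sums was 1.14 to 1.17 on every plate.

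**Figure D3:**
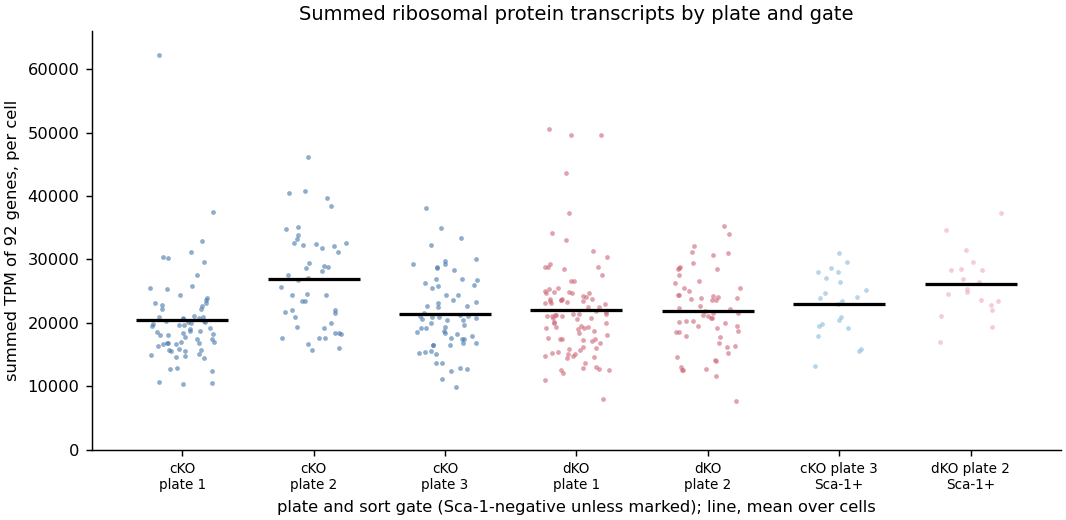
Summed TPM of the 92 members in each kept cell, by plate and sort gate, with blue for cKO and red for dKO and paler points for Sca-1-positive cells; the black line is the mean over cells. The means of the Sca-1-negative plates run from 20360 to 26844 TPM and overlap between genotypes, and 1 cell of cKO plate 1 stands at 62319 TPM.

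Gene by gene, Rpl34 stood alone. A gene passed the size rule between genotypes where mean TPM + 1 differed at least 1.5-fold and the plates did not overlap in mean TPM or in mean log2(TPM + 1). Of 7060 genes averaging at least 5 TPM, 1.77% passed higher in dKO and 3.95% lower, and of the 84 members at that level 0 passed higher and 1 lower. The median log2 ratio was -0.07 for members and -0.12 for all genes measured. For the stalk, Rplp0 averaged 249 TPM over cKO plates and 279 TPM over dKO plates, Rplp1 642 and 685 TPM and Rplp2 371 and 349 TPM, with overlapping plates in each.

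Rpl34 encodes a protein of the large subunit and lies at chr3:130726831-130730398 on the minus strand (GRCm38). It averaged 237 ± 124.3, 338 ± 152.1 and 243.5 ± 120.5 TPM (SD over 71, 47 and 65 cells) on cKO plates 1, 2 and 3, against 114.5 ± 54.4 and 177.1 ± 85.4 TPM (93 and 61 cells) on dKO plates 1 and 2. Every dKO plate was below every cKO plate, a 1.86-fold difference (log2 -0.90). On the plates with Xist alone the log2 ratio was -1.32, and on the plates with Y-linked RNA alone -0.46, under the ratio. The direction turned once its copies were added. The copy Rpl34-ps1, a processed pseudogene at chr6:71124610-71124963 on the plus strand, held 14.4, 19.8 and 4.53 TPM in cKO against 278 and 164.3 TPM in dKO, plate by plate, and was 15.97-fold higher in dKO.

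The copy split the cells almost completely by genotype. At 10 TPM or more it was detected in 10 of 71, 6 of 47 and 7 of 65 cells of cKO plates 1, 2 and 3, and in 93 of 93 and 59 of 61 cells of dKO plates 1 and 2. In the other gate it was at that level in 2 of 22 Sca-1-positive cKO cells and 19 of 19 Sca-1-positive dKO cells, with means of 1.87 and 177.7 TPM. With all near-identical copies added, Rpl34 reached 253, 361 and 249 TPM in cKO against 394 and 343 TPM in dKO, and the plates overlapped (log2 0.36). The copy was higher in dKO among plates with Xist and among plates with Y-linked RNA.

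Within the coding sequence the copy and the gene are separated by few bases, shown here because reads within it that span neither position fit both rows. The pseudogene is 354 bases long, the length of the Rpl34 coding sequence, and differs from it at 2 positions, T132C and C318G, counted from the A of the start codon with the base of Rpl34 first. The libraries were read in short paired ends. The stretches, from GENCODE vM21 transcripts, are centred on the positions, first T132C and then C318G, and capitals mark the differing base.
Rpl34: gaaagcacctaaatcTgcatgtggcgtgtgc
Rpl34-ps1: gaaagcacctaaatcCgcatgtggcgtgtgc
Rpl34: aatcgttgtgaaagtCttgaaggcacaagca
Rpl34-ps1: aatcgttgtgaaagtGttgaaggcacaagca

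Which bases the reads held at those positions was not tested, since reads were not used here. Among 60 copies with at least 20 TPM on a plate, Rpl34-ps1 was not the only one whose plate means did not overlap between genotypes. Gm14039, a copy of Rpl21, averaged 52.1, 29.5 and 48.4 TPM on cKO plates 1, 2 and 3 against 14.7 and 22.2 TPM on dKO plates 1 and 2. Gm10073, a copy of Rplp1, averaged 28.4, 34.02 and 61.5 TPM against 1.63 and 27.7 TPM on the same plates. Both were lower in dKO, and Rpl34-ps1 was higher.

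**Figure D4:**
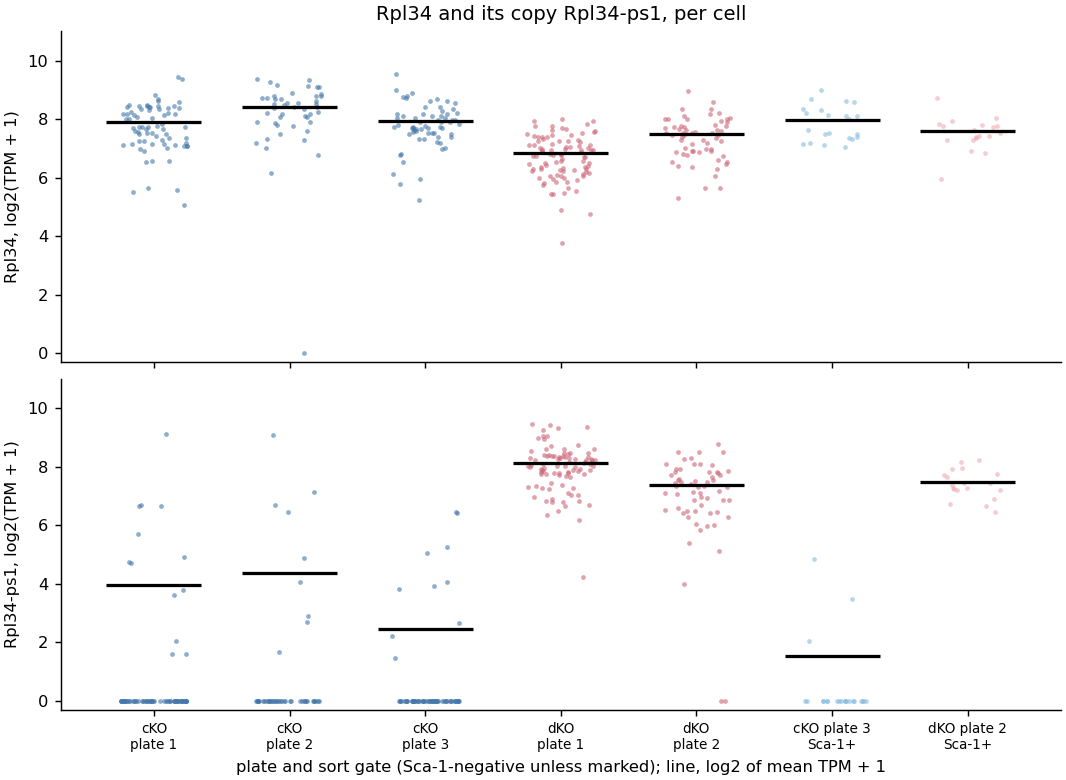
Rpl34 (top) and its copy Rpl34-ps1 (bottom) in each kept cell, as log2(TPM + 1), by plate and sort gate; the black line is log2 of mean TPM + 1. Nearly all dKO cells hold the copy (93 of 93 and 59 of 61 Sca-1-negative cells at 10 TPM or more), and most cKO cells lie at 0.

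Sca-1-positive cells had higher summed levels than Sca-1-negative cells of the same plate. The sum was 22953 ± 4904 TPM (SD over 22 cells) against 21455 ± 6024 TPM (65 cells) on cKO plate 3, a ratio of 1.07, and 26070 ± 5060 TPM (19 cells) against 21863 ± 5937 TPM (61 cells) on dKO plate 2, a ratio of 1.19. As a percent of the reduced total the values were 11.7% against 9.95% and 13.3% against 10.2%. The differences in summed TPM were smaller than the SD over cells on both plates, and the difference in percent on dKO plate 2 was larger than it (SD 2.15 points over Sca-1-positive and 2.62 points over Sca-1-negative cells). Sca-1-positive cells filled rows A and B of both plates, so gate and position cannot be told apart. On the 3 plates that held Sca-1-negative cells throughout, rows A and B over rows C to H gave 0.881 (cKO plate 1), 1.08 (cKO plate 2) and 1.06 (dKO plate 1). The share of Rn18s-rs5 was 60.4% in Sca-1-positive against 55.3% in Sca-1-negative cells of cKO plate 3, and 60.9% against 56.03% on dKO plate 2, and the reduced total leaves that row out. Sca-1-positive cells also differed in cell markers: 3 of 3 basal keratinocyte markers were higher in both genotypes (summed level 1660 against 3831 TPM in cKO and 1513 against 4360 TPM in dKO), and 5 of 6 bulge markers in cKO and 6 of 7 in dKO were lower. Genes detected differed by -2.85% in cKO and -6.75% in dKO. The part of these in the result was not tested.

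Within a gate comparison a gene passed where mean TPM + 1 differed 1.5-fold and mean log2(TPM + 1) by at least that ratio in the same direction. On cKO plate 3, 9.53% of 6639 genes passed higher in Sca-1-positive cells and 16.1% lower, and of 84 members 2 passed higher and 1 lower. On dKO plate 2, 9.37% of 6534 genes passed higher and 23.5% lower, and of 84 members 4 passed higher and 0 lower. The median log2 ratio was 0.10 for members against -0.15 for all genes in cKO, and 0.23 against -0.30 in dKO. Members lay above 0 in 61 of 84 cases in cKO and in 76 of 84 in dKO. With a difference of 25% in place of 1.5-fold, 22 of 84 members passed higher in dKO, against 16.8% of all genes, and 8 of 84 in cKO, against 18.4% of all genes. The median of all genes in dKO moved to 0.01 with median-of-ratios size factors, and 32 of 84 members then passed higher, against 16.3% of all genes, so the count of members rests on the scale.

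The members past the rule were different in the 2 genotypes. Rpl24, a large subunit protein whose mutation gives the Belly spot and tail mouse, averaged 140.3 TPM in Sca-1-negative and 234 TPM in Sca-1-positive cells of cKO plate 3 (1.66-fold), beside 156.5 and 176.98 TPM in dKO. For Rps20, a dark skin gene, the means in that order were 134.5 and 233 TPM in dKO (1.73-fold), beside 154.6 and 176.02 TPM in cKO. For Rpl11, whose product pairs with RPL5, they were 184.7 and 290.0 TPM in dKO (1.57-fold), beside 205 and 232.5 TPM in cKO. Each of these genes was higher in the Sca-1-positive cells of both plates, and reached 1.5-fold in 1 of them.

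Rplp0, the anchor of the stalk, went the same way, with 266 and 409 TPM in dKO (1.54-fold) beside 247 and 337 TPM in cKO (1.36-fold). Rplp1 had 624 and 914 TPM in dKO beside 584 and 743 TPM in cKO, under the ratio in both. Rplp2 had 341 and 408 TPM in dKO and, in the other direction, 344 and 315 TPM in cKO. The paralog Rpl36al had 57.4 and 100.5 TPM in dKO (1.74-fold) beside 65.8 and 78.5 TPM in cKO. Rpl27 (14.8 and 24.9 TPM) and Rpl5 (9.01 and 3.88 TPM) passed in cKO in opposite directions, but neither passed with copies added (log2 0.25 and 0.00). Whether the gate differences themselves differed between genotypes was not tested.

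Cd34-positive cells had lower ribosomal protein levels than Cd34-negative cells on 4 of 5 plates. The summed TPM (± SD over cells) was 21161 ± 10779, 21071 ± 4602 and 18684 ± 6548 in the 23, 13 and 16 Cd34-positive cells of cKO plates 1, 2 and 3. It was 17019 ± 4470 and 17940 ± 4850 in the 23 and 16 of dKO plates 1 and 2. Cd34-negative cells held 19977 ± 4922, 29052 ± 7390 and 22360 ± 5621 TPM on cKO plates 1, 2 and 3. They held 23750 ± 7964 TPM on dKO plate 1 and a mean of 23258 TPM on dKO plate 2. On cKO plates 1 and 3 the difference was smaller than the SD over cells of either group. The mean within-plate difference was -18.7% (log2 -0.30 ± 0.23, SD over 5 plates), and -16.1% of the reduced total.

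The exception was cKO plate 1, at 5.93% above. It held the cell of 62319 TPM, and without that cell its Cd34-positive mean was 19290 TPM, 3.44% below the Cd34-negative mean; that removal was chosen after the values were seen. The medians there were 16906 and 19641 TPM. The number of genes detected was lower in Cd34-positive cells on 4 of 5 plates as well (mean -7.11%), with dKO plate 2 at 5.19% above, where the summed level was 22.9% below. Cells with and without Cd34 also differed in follicle position markers: 4 of 6 measured bulge markers were higher and 5 of 6 upper follicle markers lower in Cd34-positive cells, as were 2 of 3 basal keratinocyte markers (Krt14 and Itga6). Of 4 fibroblast markers 1 was measured, Col1a1, at a log2 ratio of 3.12, while Lum was listed at 0 on every plate and Pdgfra and Dcn averaged 0.18 and 0.0037 TPM. The share of TPM in ERCC spike-ins, which is larger where a cell gives less RNA, was higher in Cd34-positive cells on all 5 plates, at 6.48%, 6.62%, 4.49%, 4.18% and 4.01% against 4.22%, 4.36%, 3.47%, 3.25% and 3.65%. The part of detection, RNA amount and position in the result was not tested.

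The lower level was spread thinly over the family. A gene passed where the mean over plates of the within-plate log2 ratio reached 1.5-fold with the same sign on every plate. Of 7123 genes, 8.48% passed higher in Cd34-positive cells and 8.3% lower, and of 84 members 0 passed higher and 1 lower. The median log2 ratio was -0.30 for members and -0.03 for all genes. Above 0 lay 4 of 84 members, against 47.6% of all genes. The 80 members below 0 included all 43 large subunit genes, 30 of 31 small subunit genes and all 3 stalk genes. On single plates 35 (cKO plate 1), 79 (cKO plate 2), 72 (cKO plate 3), 80 (dKO plate 1) and 81 (dKO plate 2) of 84 lay below 0, and 33 did so on every plate. The share of all genes by plate is not given here. With a difference of 25%, 27 of 84 members passed lower, against 10.5% of all genes, and 0 higher. They included Rplp0, Rplp1, Rpsa, Rpl24, Rpl7 and Rps4x.

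Rplp0 averaged 154.8, 239, 169.97, 206 and 216 TPM in Cd34-positive cells of cKO plates 1, 2 and 3 and dKO plates 1 and 2, against 237, 311, 272, 321 and 283 TPM in Cd34-negative cells. It was lower on every plate, by 1.45-fold on average (log2 -0.54), under the ratio. Rplp1 was lower on every plate too (523, 598, 370.2, 537 and 510.5 TPM against 639, 795, 653, 814 and 665 TPM, log2 -0.50). The member past the rule was Rpl12, a protein near the base of the stalk. Its row averaged 6.76, 10.4, 15.8, 6.11 and 8.39 TPM against 25.8, 31.7, 18.2, 14.6 and 24.9 TPM (log2 -1.22), and with its copies added the log2 ratio was -0.30, close to the median of the members.

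Paralogs and retrocopies lay nearer to 0 in the median than the subunit genes, with no test of that difference. Rpl22l1 was at log2 0.13, Rps27l at 0.10 and Rps27rt at 0.05, each with plates on both sides of 0, and the median of the 7 measured was -0.07. Rpl37rt (-0.20) and Rpl7l1 (-0.49) lay below 0. Rps19 had a log2 ratio of -0.39, Rps20 -0.35, Rpl38 -0.21, Rpl21 -0.24 and Rpl11 -0.09, none past the rule. Leaving out a plate gave 1 to 4 members past the rule: leaving out cKO plate 1 gave 4, and leaving out any one of cKO plate 2, cKO plate 3 and dKO plate 2 gave 2 each.

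**Figure D5:**
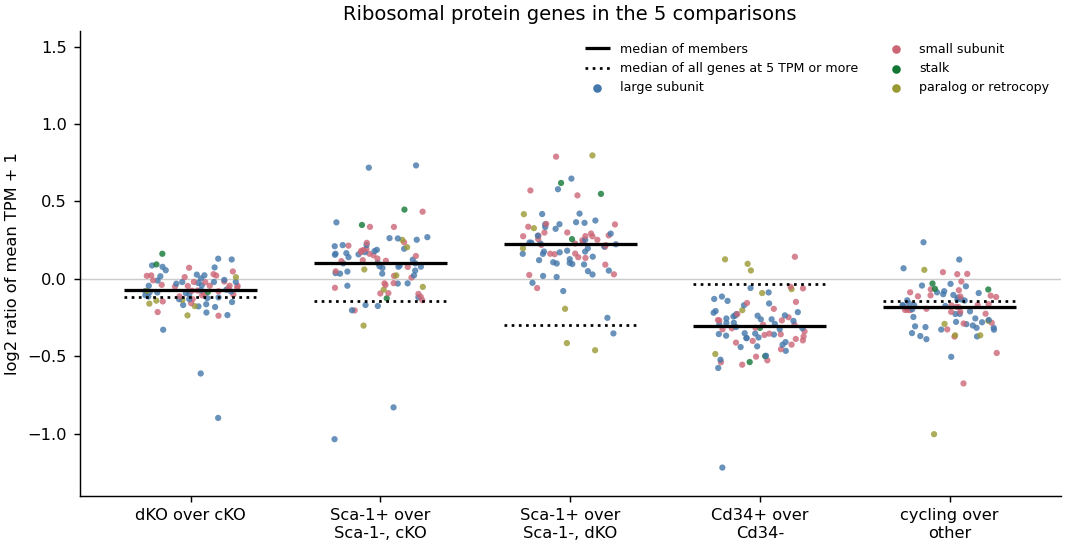
Log2 ratio of mean TPM + 1 for each measured member in the 5 comparisons, coloured by role, with the median of members (solid line) and of all genes at 5 TPM or more (dotted line). Members sit below the gene median in Cd34-positive cells (-0.30 against -0.03) and above it in Sca-1-positive cells (0.10 against -0.15 in cKO, 0.23 against -0.30 in dKO).

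Cycling cells had slightly lower summed levels on the 4 plates with at least 3 such cells. The sum was 17388 TPM in 10 cycling cells and 20847 TPM in the others of cKO plate 1, 19808 TPM (7 cells) and 21654 TPM on cKO plate 3, 21252 TPM (14 cells) and 22233 TPM on dKO plate 1, and 18561 TPM (5 cells) and 22158 TPM on dKO plate 2. The mean difference was -11.6% (log2 -0.18 ± 0.10, SD over 4 plates), and it was smaller on each plate than the SD over the cells. Cycling cells had 15.1% more genes detected, and TPM spreads a fixed total over them. Their share of TPM in ERCC spike-ins was lower on each of the 4 plates (2.60%, 3.22%, 2.78% and 3.02% against 5.34%, 3.78%, 3.61% and 3.81%), and 3 of 7 bulge markers passed lower (Lgr5, Lhx2 and Sox9). The part of these in the result was not tested. The reduced total gave -11.6% as well.

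By the rule used for Cd34, 7.24% of 6998 genes passed higher in cycling cells and 8.96% lower, and of 83 members 0 passed higher and 2 lower. The median log2 ratio was -0.18 for members and -0.14 for all genes, and with a difference of 25%, 11 of 83 members passed lower, a share near the 11.7% of all genes. Both members past the rule have near-identical rows elsewhere in the table. Rps27rt averaged 27.002, 39.8, 35.1 and 7.74 TPM in cycling cells of cKO plates 1 and 3 and dKO plates 1 and 2, against 54.02, 43.5, 38.5 and 59.1 TPM (log2 -1.004). Rps12 averaged 183.2, 121.4, 158.8 and 88.6 TPM against 206, 209, 198 and 242 TPM (log2 -0.68), and -0.33 with copies added. Without dKO plate 2, with its 5 cycling cells, neither passed (log2 -0.41 and -0.42) and 1 other member, Rpl27, did. Stalk genes lay near 0, with log2 ratios of -0.07 for Rplp0, -0.03 for Rplp1 and -0.06 for Rplp2.

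Other translation genes were read beside the family by the same rules, with the same background. The 18 TOP translation factors had 0 past the rule between genotypes (median log2 0.02), against 1.77% of all genes higher and 3.95% lower. In Cd34-positive cells 3 of 18 passed lower, Hnrnpa1 (log2 -0.70), the poly(A)-binding protein gene Pabpc1 (-0.69) and Npm1 (-0.59), and 15 of 18 lay below 0. Their sum was lower on 5 of 5 plates, by 22.8% on average. Mitochondrial ribosomal protein genes, which build the ribosome of the mitochondrion, had a sum 1.14% lower in Cd34-positive cells, with 2 higher (Mrpl54 and Mrpl13) and 4 lower of 58 measured. Of all genes 8.48% passed higher in Cd34-positive cells, 8.3% passed lower, and 47.6% lay above 0.

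Of 34 measured ribosome assembly genes 2 passed lower in Cd34-positive cells, the pseudouridine synthase gene Dkc1 (log2 -2.26) and Ubtf (-0.86), a factor of RNA polymerase I, and 0 higher. Among 15 growth control genes 3 passed lower there, Mycl (-3.25), Myc (-1.96), a known driver of ribosome synthesis, and Eif4ebp1 (-1.08), a target of mTOR. Of 9 measured p53 response genes 1 passed lower, Cdkn1a (-1.52). These counts stand beside 8.3% of all genes that passed lower in Cd34-positive cells and 8.48% that passed higher.

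Between genotypes Nop58 (log2 -0.86) and Tsr1 (-0.72) of 34 assembly genes passed lower, as did Akt1 (-0.78), Mxd4 (-0.74) and Eif4ebp2 (-0.60) of 15 growth control genes, while Mycl passed higher (0.61). None of 59 mitochondrial ribosomal protein genes and none of 9 p53 response genes passed either way. Of all genes 1.77% passed higher in dKO and 3.95% lower. In cycling cells 4 of 31 assembly genes passed lower, led by Tsr1 (-1.44), Nop16 (-1.09) and Ebna1bp2 (-0.90), with Myc (-0.86) of 16 growth control genes and Mdm2 (-2.16) of 8 p53 response genes. There 8.96% of all genes passed lower. Of the 18 TOP factors Eif4a2 alone passed lower in Sca-1-positive cells of dKO plate 2 (-0.88), where 23.5% of all genes did. Nap1l1 alone passed lower in those of cKO plate 3 (-0.82), where 16.1% of all genes did.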

How the data were processed

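Smart-seq2 libraries of 384 single cells were analysed from the TPM table that the authors deposited. The tools named in the submitters' processing notes are Bowtie2 2.2.9 and RSEM 1.2.30, with build mm10 (GRCm38). Which annotation release they used is not given in these sources. RSEM shares out reads that match several rows, and a gene and its near-identical copy are thus not independent. TPM keeps no depth. Smart-seq2 with Nextera tagmentation, per the labels' protocols, carries no molecular identifiers and marks no strand.

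Groups came from the genotype and sorting labels, and the number in a title was read as a plate. Means of TPM over cells were compared by plate after adding 1 TPM, which makes differences of low genes look smaller. Members and lists were chosen with earlier results of these data known. Named were the 10 highest members, the 5 lowest above 1 TPM, the stalk genes and Rpsa, paralogs with partners, 7 genes of known roles, up to 6 members past a rule per direction, and up to 3 genes of each other list. Some genes that this rule names are not reported here. Cd34 and Top2a were left out of their own comparisons.

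Copies were found with BLAST 2.17.0 against GENCODE vM21 transcripts of genes that are not members. Sequences came from GENCODE vM21 and RefSeq. The scripts ran in Python 3.11.15 with pandas 2.3.3. The size rules were run on simulated cells without plate differences, with planted changes larger than those of most members past a rule here. That run therefore does not show how the rules behave with plate differences or smaller changes. Columns were never identical, and the highest correlation between cells was 0.73. Doublets were not called.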

Additional observations from a re-analysis of the deposited data

Results flagged for a closer look

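A signal appeared in rows outside the members compared: the processed pseudogene Rpl34-ps1, a near-identical copy of Rpl34, stood at a log2 ratio of 3.997 in dKO against cKO among Sca-1-negative cells. Its plate means were 14.4, 19.8 and 4.53 TPM in cKO against 278 and 164.3 TPM in dKO.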

How the results depend on the processing

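No paired analysis was possible because the labels tie no cells across genotypes or gates by animal; Cd34 and cycling cells were compared with other cells within each plate. Each alternative was read against a yardstick in log2 units. For the genotypes it was the SD of log2 summed TPM over cKO plates (0.21). For Cd34 and cycling cells it was the SD of the within-plate ratios (0.23 and 0.10). For both gates it was the SD of the ratios of rows A and B to rows C to H on all-Sca-1-negative plates (0.165). The log2 ratio of the summed TPM stayed within it for the genotype, Cd34 and cKO gate comparisons. For the genotypes the yardstick is larger than the ratio (-0.06), and the sign turned in 5 of 17. The ratio moved by more for the dKO gate, to 0.57 with median-of-ratios size factors. For cycling cells it moved to -0.28 with at least 3 cycling markers. Leaving out each plate gave -0.14 to 0.07 for the genotypes, -0.39 to -0.25 for Cd34 and -0.22 to -0.15 for cycling cells. Over all alternatives the ranges were wider, at -0.22 to 0.08, -0.43 to -0.10 and -0.28 to -0.09 in that order. With a Cd34 threshold of 1 TPM the median log2 ratio of members was -0.11.

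Counts of members past a rule are small and moved often. A difference of 25% gave 9 (cKO gate), 24 (dKO gate), 27 (Cd34) and 11 (cycling) in place of 3, 4, 1 and 2, where 45.9%, 52.5%, 21.02% and 21.2% of all genes passed in either direction; a ratio of 2 gave 0, 0, 1 and 1 for cKO gate, dKO gate, Cd34 and cycling, and 0 between genotypes. Removing ERCC rows, mitochondrial genes and the 5 most abundant rows together gave 2 between genotypes and 8 for the dKO gate, and size factors 32 there. With copies added (chosen after seeing the data) the counts were 0 between genotypes, 1 for the cKO gate, 0 for Cd34 and 1 for cycling; Rpl34 between genotypes turned to 0.36 and Rpl5 by gate in cKO to 0.0047. No filter on genes gave 2 between genotypes and 2 for Cd34, and a filter of 20 TPM 1 for the cKO gate and 0 for Cd34. A pseudocount of 10 TPM gave 1 for the cKO gate. Cd34-positive cells alone gave 5 between genotypes and the plates with Y-linked RNA alone 0. All cells, cells with at least 2500 genes and a Cd34 threshold of 50 TPM gave 2 each for Cd34, leaving out the highest 5% of cells 5 and a threshold of 1 TPM 0. For cycling, cells with at least 2500 genes gave 1, a Top2a threshold of 1 TPM 0 and 3 cycling markers 1. Leaving out a plate gave 1 to 2 (genotypes), 1 to 4 (Cd34) and 1 to 3 (cycling). The cause was not tested, beyond what a looser or stricter threshold does by construction.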
